A study of Mus musculus with 6 samples.

Results

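The genes described here are the ligands, receptors, antagonists and intracellular effectors of canonical Wnt signalling in mouse embryonic fibroblasts (MEFs) labelled het or knockout for Macf1. They were taken by gene symbol, with earlier results of these data known, and number 45 of the 32028 genes in the count table. They comprise 10 Wnt ligands, 2 ligand secretion genes, 8 receptors and co-receptors, 7 genes of the R-spondin system, 7 extracellular antagonists, 5 genes of the destruction complex and its substrate, 2 intracellular inhibitors and 4 TCF/LEF factors.

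Poly(A) RNA was sequenced with a stranded library kit from 6 clonal MEF lines, taken at confluence. The 3 het clones came from Macf1flox/+ mice and the 3 knockout clones from Macf1flox/flox mice. All 6 lines carried SV40 large T antigen, had been treated with AAV8-CMV-Cre, a virus that drives Cre recombinase from a general promoter, and were raised as single cell colonies. The control clones had therefore also been exposed to Cre and, by the protocol, had lost 1 Macf1 allele. The labels give no number of embryos or cultures behind the clones, so p-values measure the spread between clones. MACF1, the product of Macf1, is a large protein that links actin filaments to microtubules.

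In canonical Wnt signalling a secreted, lipid-modified Wnt protein binds a Frizzled receptor and the co-receptor LRP5 or LRP6. Without a ligand, a complex of Axin, APC, casein kinase 1 alpha and GSK3 beta marks beta-catenin for destruction. With a ligand this complex is held at the membrane, beta-catenin accumulates, and in the nucleus it acts with TCF/LEF factors on target genes. MACF1 has been described as a partner of the Axin complex. R-spondins bound to LGR receptors keep the ubiquitin ligases RNF43 and ZNRF3 from removing Frizzled, and several inhibitors, Axin2 and Rnf43 among them, are themselves targets of the pathway. In fibroblasts Wnt signalling is best known for its part in matrix production and in the exchange of signals with epithelium.

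The libraries held 15661342 to 18209673 estimated counts each. Macf1 itself, measured over the whole gene, fell from 656 ± 66.6 to 331 ± 27.9 CPM (a gene's counts relative to its TMM-scaled library size; mean ± SD, n = 3 clones each; adjusted p = 0.00307, edgeR). The labels do not say which exons were removed, so this value does not check the recombination. Taken across genes, which are no independent replicates, log2 CPM correlated at 0.986 between het replicates 2 and 3, 0.959 and 0.952 between het replicate 1 and these, and 0.978 to 0.994 among knockout clones. The summed level of 4 Y-linked genes was 204 CPM in het replicate 1, 4.05 and 4.89 CPM in het replicates 2 and 3, and 255 to 367 CPM in the knockout clones. Of the 4, Ddx3y differed from the other 3, with 60.0 CPM in het replicate 1 and at most 0.207 CPM in each of the other clones, the knockouts included. Het replicate 1 thus stood apart from the other het clones. Without it, het replicates 2 and 3 were low and all knockout clones high in the Y-linked sum. Genotype and that difference cannot be told apart in that comparison. High Eif2s3y, Kdm5d and Uty with next to no Ddx3y was found in all knockout clones and in no het clone. With no number of embryos or cultures given, genotype and the origin of the clones cannot be told apart with all clones either. Among genes tested with all clones, the calls of Sfrp1 and Axin1 and the direction of Wnt4 and Nkd2 turned on het replicate 1. Their values are given with and without it. Wnt10b and Lrp6 changed sign near 0 (log2 fold changes of -0.19 and 0.11 without het replicate 1, neither passing). Of 12 fibroblast markers, 9 could be tested and 6 of these fell (Col1a1, Col1a2, Col3a1, Pdgfra, Pdgfrb and S100a4). Of all tested genes, 14.2% fell. The type I collagen genes were nearly lost, Col1a1 falling from 1229 ± 245 to 7.40 ± 5.75 CPM and Col1a2 from 1056 ± 786 to 0.816 ± 0.436 CPM (log2 fold changes -7.36 and -10.36, adjusted p = 0.00128 and 0.00124, edgeR). Col3a1 went from 78.5 ± 77.3 to 3.49 ± 2.64 CPM and Pdgfra from 6.65 ± 1.81 to 1.29 ± 0.593 CPM. All 12 markers summed to 10120 to 13634 CPM in het and 6678 to 9091 CPM in knockout clones, a sum made up mostly of Fn1 (means of 5774 and 4269 CPM) and Vim (2425 and 2866 CPM), which did not pass. Lum had no counts, and Thy1 and Dcn averaged under 1 CPM in both groups. The label of fibroblast thus rests in the knockout clones on Fn1, Vim, Col5a1, S100a4 and Pdgfrb, without the type I collagen genes. Among markers of other cell types, Krt19 and the neural genes Nes, Map2, Sox2 and Tubb3 averaged over 5 CPM in het clones, and Nes and Map2 also in knockout clones. The 8 epithelial markers summed to 16.2 to 56.7 CPM in het and 0.492 to 1.09 CPM in knockout clones, with 7 of the 8 under 1 CPM in every clone. The 6 neural markers summed to 103 to 234 and 115 to 125 CPM, the 6 endothelial to 1.56 to 3.26 and 2.63 to 3.21 CPM, the 6 blood markers to 5.03 to 6.40 and 5.25 to 5.95 CPM, and the 6 muscle markers to 0.658 to 1.52 and 2.20 to 4.24 CPM. Emcn, Adgre1, Myod1, Myog, Myf5 and Pax7 had no counts. Of these lists, Krt19, Sox2, Tubb3 and Map2 fell and Des rose, where 14.2% of all tested genes fell and 13.9% rose. The part that these shifts have in the Wnt gene results was not tested.

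The knockout clones had lower levels of Wnt10a, Rspo2, Rnf43 and Axin2, each below 1 CPM on average, and smaller falls of Fzd2, Fzd4, Lgr4, Tcf7 and Tcf7l2. The secretion gene Wls and the co-receptor gene Lrp5 rose, while Ctnnb1, Lrp6 and Wnt10b did not pass, with overlapping clones. Of the 45 genes, 30 had enough counts to be tested. The comparison used edgeR's quasi-likelihood test with Benjamini-Hochberg adjustment over all 12745 tested genes, and a gene passed at an adjusted p below 0.05. Of the 30, 2 rose in the knockout clones (13.9% of all tested genes rose), 9 fell (14.2% of all tested genes fell) and 19 did not pass. In all, 36.7% of the tested Wnt genes passed, against 28.1% of all tested genes. Their median log2 fold change was -0.45, and that of all tested genes was -0.00061. The knockout clones lay wholly below the het clones for 11 of the 30 and wholly above for 5, and over all tested genes 47.5% did not overlap. Rspo2 and Wnt10a were above the minimum of 0.582 CPM set by the filter in no knockout clone, and Rnf43, Axin2 and Sfrp1 in 1. These genes entered the test through the het clones, so the counts describe the genes and support no statement about the group. Without het replicate 1, 3 of the Wnt genes rose and 12 fell, with 29.1% of all genes passing. The filter then kept 13138 genes, and the 12 include Wnt genes not tested with all clones. In that run genotype cannot be told apart from the difference in Y-linked genes given above. The number that fell was 2 without knockout replicate 1 or without knockout replicate 2, 4 without het replicate 3 and 5 without het replicate 2. Over all tested genes, 14.4%, 11.8%, 18.7% and 17.1% passed in these runs, in that order. In bulk RNA, fewer cells of a type and less RNA per cell cannot be told apart.

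**Figure D1:**
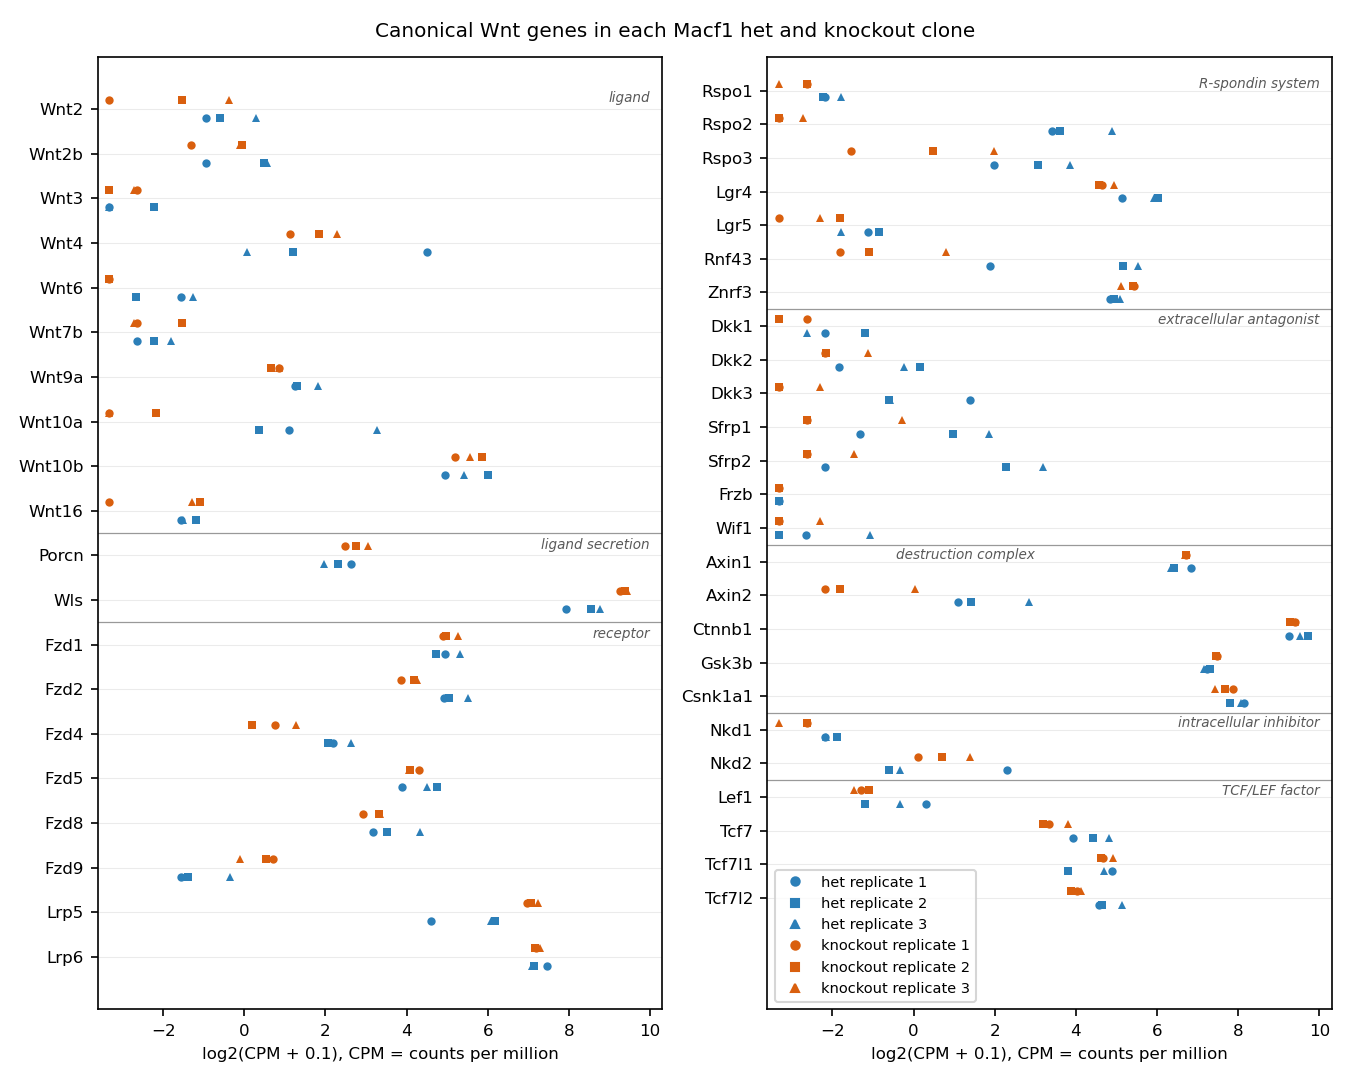
Level of each of the 45 canonical Wnt genes in each clone, as log2(CPM + 0.1) on the horizontal axis, with genes ordered by role. Blue points are het and orange points knockout clones, and the symbol gives the replicate. The orange points of Rspo2 and Wnt10a sit at or next to the value of a count of 0, and those of Wls lie between 610 and 685 CPM, right of all 3 het clones.

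Levels between genes can be compared only per transcript length, as TPM, which scales counts by length and then by library. On that scale Ctnnb1, which encodes beta-catenin, was the most abundant of the 45 in het clones, at 534 ± 105 TPM against 475 ± 51.3 TPM in knockout clones. Wls was highest in knockout clones at 530 ± 80.9 TPM, from 284 ± 86.3 TPM in het clones. Csnk1a1 (198 and 170 TPM), Gsk3b (71.8 and 78.5 TPM) and Axin1 (62.9 and 66.0 TPM) followed in both. The leading ligand was Wnt10b, at 40.8 ± 15.7 and 42.0 ± 11.1 TPM, and no other ligand of the 10 averaged above 3.82 TPM in either genotype. Lrp6 (34.8 and 34.4 TPM) stood above Lrp5 in het clones (20.6 TPM) and below it in knockout clones (51.8 TPM). Among Frizzleds, Fzd2 at 19.5 ± 4.95 TPM and Fzd1 at 15.1 ± 3.61 TPM were within their spread of each other in het clones. In knockout clones Fzd1 (15.6 ± 3.50 TPM) stood above Fzd2 (9.28 ± 2.10 TPM). Tcf7l2 led the TCF/LEF factors in het clones (25.9 ± 4.59 TPM), ahead of Tcf7 (17.9 ± 6.18) and Tcf7l1 (17.0 ± 4.80), whose spreads overlap with it. In knockout clones the order was Tcf7l1 (19.1 ± 3.55 TPM), Tcf7l2 (14.4 ± 1.46) and Tcf7 (9.35 ± 3.16).

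**Figure D2:**
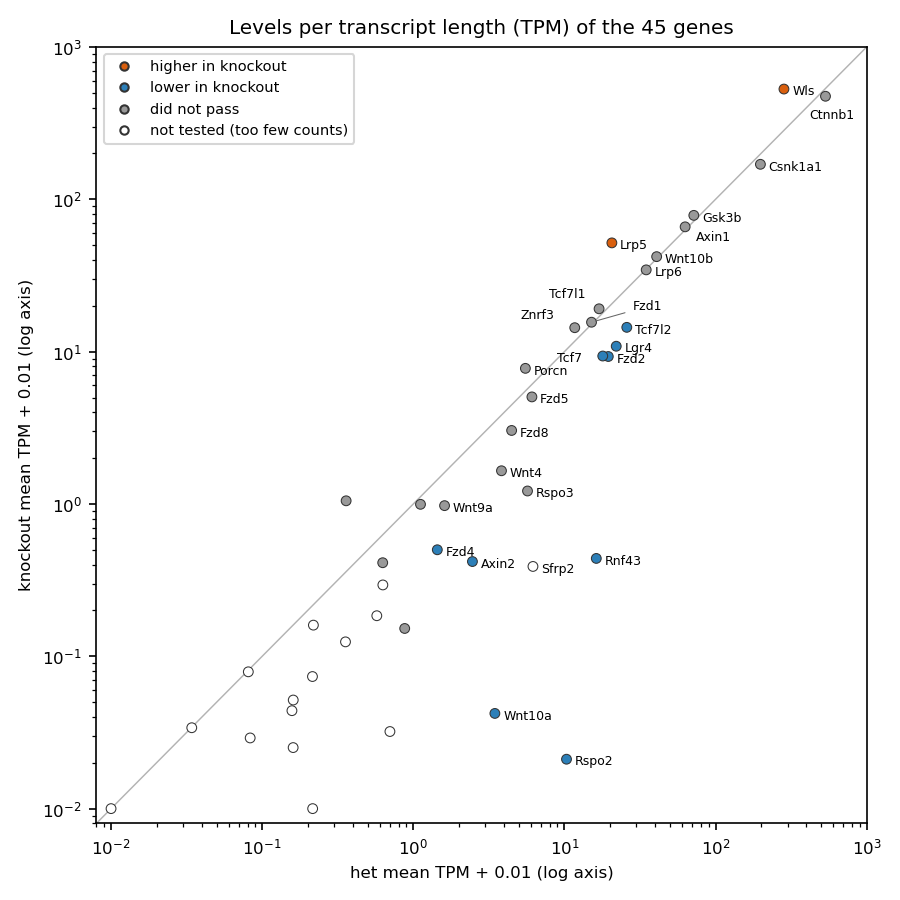
Mean level per transcript length of the 45 genes in het (horizontal) and knockout clones (vertical), in TPM + 0.01 on log axes, with the line of equal levels. Colours mark the call, open circles are genes with too few counts to be tested, and names are given above 1.2 TPM. Rspo2, Rnf43 and Wnt10a lie far below the line, and Ctnnb1, Csnk1a1, Gsk3b, Axin1, Lrp6 and Wnt10b lie along it.

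Of the ligands, Wnt10a (chromosome 1, 74791516 to 74804179, GRCm38), whose protein is best known from tooth and skin development, fell. It measured 2.03, 1.18 and 9.59 CPM in het replicates 1 to 3, and 0, 0.123 and 0 CPM in knockout replicates 1 to 3. The counts were 208 over the het and 2 over the knockout clones, a 107-fold difference with an exact 95% counting interval of 29.3 to 891. The groups did not overlap, and het replicate 3 was the highest clone. The fitted log2 fold change, -6.53 (standard error, SE, 1.33), passed (adjusted p = 0.0141, edgeR). Leaving out het replicate 3 gave -5.13, leaving out knockout replicate 1 gave -6.05 and leaving out knockout replicate 2 gave -9.20, and the last 2 of these did not pass (adjusted p = 0.0613 and 0.0599, edgeR).

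Wnt10b, the ligand known for promoting bone and restraining fat formation, measured 30.8, 64.2 and 42.6 CPM in het and 36.2, 57.7 and 47.3 CPM in knockout clones. Its ranges overlapped almost fully (log2 fold change 0.04 with SE 0.29, adjusted p = 0.935 in edgeR). Wnt4 stood at 22.4 CPM in het replicate 1, against 2.19 and 0.941 CPM in the other het clones and 2.08, 3.51 and 4.76 CPM in the knockout clones. Its log2 fold change was -1.30 with all clones and 1.12 without het replicate 1, and neither passed (adjusted p = 0.432 and 0.157, edgeR). Wnt9a (2.69 ± 0.654 and 1.63 ± 0.134 CPM, adjusted p = 0.120) and Wnt2b (1.03 ± 0.531 and 0.665 ± 0.312 CPM, adjusted p = 0.463) did not pass either. Wnt2, Wnt3, Wnt6, Wnt7b and Wnt16 were too low to be tested, with 35, 2, 10, 6 and 14 counts over the het clones and 17, 2, 0, 6 and 12 over the knockout clones. Among these 10 ligands, Wnt10b was thus the main RNA in both genotypes.

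Both genes that prepare ligands for release were measured. Wls (chromosome 3, 159839672 to 159938664) encodes the carrier that takes Wnt proteins to the cell surface, and it rose. It measured 244, 373 and 432 CPM in het and 610, 672 and 685 CPM in knockout clones, so the lowest knockout clone stood above the highest het clone. The means were 350 ± 96.3 and 656 ± 40.3 CPM (log2 fold change 0.91 with SE 0.21, adjusted p = 0.0209 in edgeR). The fold change moved little when a clone was left out, but the call ended without het replicate 2, knockout replicate 1 or knockout replicate 2 (adjusted p = 0.0634, 0.0550 and 0.0779, edgeR). Porcn, whose enzyme attaches the lipid to Wnt proteins, measured 4.92 ± 1.11 CPM in het clones against 6.75 ± 1.34 CPM in knockout clones and did not pass (adjusted p = 0.246, edgeR).

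Of the 6 Frizzled genes, which encode the seven-pass receptors of Wnt proteins, Fzd2 and Fzd4 fell. Fzd2 (chromosome 11, 102604396 to 102608058) measured 30.4, 33.1 and 45.3 CPM in het and 14.3, 18.1 and 19.1 CPM in knockout clones. Every knockout clone was below the lowest het clone, at means of 17.2 ± 2.51 and 36.3 ± 7.92 CPM (log2 fold change -1.08 with SE 0.19, adjusted p = 0.00832 in edgeR). It passed under all 16 alternative settings. Fzd4 (chromosome 7, 89404355 to 89413134), the receptor known from retinal vessels, fell from 4.49, 4.10 and 6.08 CPM to 1.59, 1.05 and 2.33 CPM, again without overlap (log2 fold change -1.55 with SE 0.37, adjusted p = 0.0223 in edgeR). The call of Fzd4 ended without het replicate 3, knockout replicate 1 or knockout replicate 2 (adjusted p = 0.0726, 0.0787 and 0.0814, edgeR).

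Fzd1 (32.3 ± 6.91 and 33.1 ± 4.40 CPM, adjusted p = 0.891, edgeR), Fzd5 (21.2 ± 6.11 and 17.6 ± 1.75 CPM, adjusted p = 0.410) and Fzd8 (13.5 ± 5.90 and 9.15 ± 1.42 CPM, adjusted p = 0.234) did not pass, and the ranges of each overlapped. Fzd9 was near the minimum set by the filter, at 0.239, 0.281 and 0.690 CPM in het and 1.53, 1.35 and 0.827 CPM in knockout clones, higher in all 3 knockout clones but not past the threshold (adjusted p = 0.0565, and 0.0390 without het replicate 3, edgeR). Of the Frizzled genes 2 thus passed, both lower, where 28.1% of all tested genes passed and 14.2% fell. The count describes these genes and supports no statement about the family.

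Of the co-receptor genes, Lrp5 rose. Lrp5 (chromosome 19, 3584828 to 3686564) measured 24.2, 71.8 and 68.0 CPM in het and 125, 133 and 150 CPM in knockout clones. Every knockout clone stood above every het clone, and het replicate 1 was the lowest of all (log2 fold change 1.31 with SE 0.39, adjusted p = 0.0492 in edgeR). This call was the least stable of the 11, lost in 9 of 16 alternatives. With het replicate 2 or 3, or knockout replicate 1, 2 or 3, left out, the adjusted p was 0.0644, 0.0727, 0.113, 0.121 and 0.121 (edgeR), with log2 fold changes of 1.23 to 1.55. With library totals, no filter on low counts, a minimum of 1 CPM in 3 samples, or the chromosome's local median taken out, it was 0.0649, 0.101, 0.0532 and 0.0997. Lrp6, the other co-receptor, measured 175, 141 and 135 CPM in het and 147, 144 and 157 CPM in knockout clones (adjusted p = 0.949, edgeR).

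The R-spondin system comprises the ligands, receptors and ubiquitin ligases that set how much Frizzled stays on the cell surface. Of its 7 genes 5 were tested, 3 fell and none rose, where 14.2% of all tested genes fell and 13.9% rose. Of these 3, Rspo2 was over the filter minimum in 0 and Rnf43 in 1 of the knockout clones, so the count supports no statement about the system. Rspo2 (chromosome 15, 43020794 to 43170826), a secreted amplifier of Wnt signalling, measured 10.5, 12.1 and 29.4 CPM in het clones. It had no counts in knockout replicates 1 and 2 and 1 count, 0.0517 CPM, in knockout replicate 3. The totals were 860 against 1 count, an 886-fold difference with an exact 95% counting interval of 159 to 35037. The log2 fold change was -9.36 (SE 0.83, adjusted p = 0.00087, edgeR), -8.75 without het replicate 3 and -11.17 without knockout replicate 3, and the call held under all 16 alternatives.

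Rspo3, its relative, measured 3.83, 8.32 and 14.3 CPM in het and 0.244, 1.29 and 3.83 CPM in knockout clones. The highest knockout clone lay just under the lowest het clone, and the gene did not pass (log2 fold change -2.28 with SE 0.90, adjusted p = 0.104 in edgeR). Without knockout replicate 3 its log2 fold change was -3.51 and it passed (adjusted p = 0.0444, edgeR), as it did in DESeq2 with all clones (adjusted p = 0.0191). Rspo1 was not tested, with 7 counts over the het and 2 over the knockout clones.

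Lgr4 (chromosome 2, 109917647 to 110014257), an R-spondin receptor gene, measured 35.2, 65.1 and 60.7 CPM in het and 24.9, 23.7 and 30.8 CPM in knockout clones. The groups did not overlap, and their means were 53.7 ± 16.1 and 26.5 ± 3.76 CPM (log2 fold change -1.02 with SE 0.24, adjusted p = 0.0226 in edgeR). Its call ended when het replicate 2 or 3, or knockout replicate 1 or 2, was left out (adjusted p = 0.0710, 0.0684, 0.0842 and 0.0909, edgeR). Lgr5, the receptor known as a stem cell marker, was not tested, with 17 counts over the het and 5 over the knockout clones.

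Of the 2 ubiquitin ligase genes, Rnf43 fell. Rnf43 (chromosome 11, 87662722 to 87735539) measured 3.59, 35.7 and 46.2 CPM in het and 0.183, 0.369 and 1.65 CPM in knockout clones. All knockout clones were lower, yet het replicate 1 stood nearer to knockout replicate 3 than to the other het clones. Over all clones there were 1432 het and 41 knockout counts, 36.0-fold apart with a counting interval of 26.4 to 50.4 (log2 fold change -5.21 with SE 1.22, adjusted p = 0.0266 in edgeR). The call ended when het replicate 2 or 3, or knockout replicate 1 or 2, was left out (adjusted p = 0.0618, 0.0532, 0.0935 and 0.105, edgeR), with no filter on low counts (0.0803) and with limma-voom (0.175). It held without knockout replicate 3, where the log2 fold change was -6.66 (adjusted p = 0.0462, edgeR). Znrf3, which encodes the related ligase, measured 28.7, 30.8 and 33.6 CPM in het and 43.2, 42.1 and 34.7 CPM in knockout clones. It was higher in each knockout clone without passing (log2 fold change 0.37, SE 0.12, adjusted p = 0.0670, and 0.0307 without knockout replicate 3, edgeR).

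Apart from Sfrp2 in het replicates 2 and 3, the secreted antagonists were scarce in both genotypes. Only 1 of 7 had enough counts to be tested with all clones. Sfrp1, which binds Wnt proteins outside the cell, measured 0.299, 1.86 and 3.51 CPM in het and 0.0611, 0.0615 and 0.724 CPM in knockout clones. These ranges overlapped through het replicate 1 (log2 fold change -2.65 with SE 1.11, adjusted p = 0.122 in edgeR). It passed without het replicate 1, at a log2 fold change of -3.15, and without knockout replicate 3, at -4.79 (adjusted p = 0.0409 and 0.0476, edgeR). Sfrp2 reached the minimum level in het replicates 2 and 3 only, with 0.120, 4.72 and 9.03 CPM in het and 0.0611, 0.0615 and 0.259 CPM in knockout clones, 230 against 7 counts. Dkk3, a relative of the LRP-binding Dickkopf proteins, had 61 against 2 counts, a ratio of 31.4 with a counting interval of 8.33 to 265, and 2.51 of its CPM in het replicate 1 against 0.562 and 0.564 CPM in the other het clones. Dkk1 had 9 against 1, Dkk2 33 against 11, and Wif1 7 against 2 counts, and Frzb had no counts in any clone. With all clones, a difference between genotypes was not tested for these 6 genes.

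Apart from Axin2, the genes of the destruction complex and its substrate did not pass. Ctnnb1 measured 604, 842 and 735 CPM in het and 673, 620 and 677 CPM in knockout clones, within the het range (log2 fold change -0.15 with SE 0.15, adjusted p = 0.505 in edgeR). This is a measure of RNA, while beta-catenin is known to be set mainly by protein turnover. Axin1, the scaffold of the complex, measured 115, 85.2 and 80.9 CPM in het and 104 to 106 CPM in knockout clones (adjusted p = 0.437, and 0.0404 without het replicate 1, edgeR). Gsk3b, whose kinase marks beta-catenin, measured 142 to 157 CPM in het and 174 to 178 CPM in knockout clones, higher in each knockout clone but not past the threshold (log2 fold change 0.24 with SE 0.08, adjusted p = 0.0690 in edgeR). DESeq2 passed it (adjusted p = 0.0262), and the median log2 fold change of its tested chromosomal neighbours (20 on each side) was also 0.24. Csnk1a1, which encodes casein kinase 1 alpha, the priming kinase, averaged 259 ± 30.6 and 203 ± 31.0 CPM (log2 fold change -0.35, adjusted p = 0.121, edgeR), beside a neighbourhood median of -0.39.

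Axin2 (chromosome 11, 108920349 to 108950783), the inducible scaffold that is widely used as a readout of the pathway, fell. It measured 2.03, 2.59 and 7.09 CPM in het and 0.122, 0.185 and 0.931 CPM in knockout clones. The groups did not overlap, and replicate 3 was the highest of each. The counts were 193 and 23, 8.65-fold apart with a counting interval of 5.60 to 14.0 (log2 fold change -3.17 with SE 0.84, adjusted p = 0.0318 in edgeR). The call ended when het replicate 2 or 3, or knockout replicate 1 or 2, was left out (adjusted p = 0.0607, 0.0884, 0.0952 and 0.116, edgeR). The log2 fold change was -2.43 without het replicate 3 and -4.61 without knockout replicate 3, where it passed (adjusted p = 0.0147, edgeR). Of the intracellular inhibitors that act on Dishevelled, Nkd2 stood at 4.85 CPM in het replicate 1, against 0.562 and 0.690 CPM in the other het and 0.977 to 2.53 CPM in the knockouts. Its log2 fold change was -0.26 with all clones and 1.42 without het replicate 1, and neither passed (adjusted p = 0.842 and 0.0924, edgeR). Nkd1 had 7 counts over the het and 2 over the knockout clones and was not tested.

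Of the TCF/LEF genes, whose proteins bind the target genes of beta-catenin, Tcf7l2 and Tcf7 fell. Tcf7l2 (chromosome 19, 55741820 to 55933654) measured 23.8, 25.1 and 35.3 CPM in het and 16.2, 14.6 and 17.3 CPM in knockout clones. Its means were 28.1 ± 6.30 and 16.0 ± 1.38 CPM, without overlap (log2 fold change -0.81 with SE 0.18, adjusted p = 0.0181 in edgeR), while the median of its tested chromosomal neighbours was 0.39. The call ended without knockout replicate 1 or 2 (adjusted p = 0.0613 and 0.0801, edgeR). Tcf7 (chromosome 11, 52252371 to 52283014), which encodes TCF1, measured 15.0, 21.4 and 28.0 CPM in het and 10.1, 8.98 and 14.0 CPM in knockout clones. The highest knockout clone stood just below the lowest het clone (log2 fold change -0.96 with SE 0.27, adjusted p = 0.0389 in edgeR).

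The call of Tcf7 ended when het replicate 2 or 3, or knockout replicate 1 or 2, was left out (adjusted p = 0.0965, 0.113, 0.119 and 0.135, edgeR), with library totals (0.0527), against the local chromosome median (0.0610) and with limma-voom (0.0518). Tcf7l1, known mainly as a repressor of targets, measured 29.7, 13.9 and 25.6 CPM in het and 25.2, 24.5 and 29.9 CPM in knockout clones and did not pass (adjusted p = 0.614, edgeR). Lef1 was too low to be tested, at 1.14, 0.337 and 0.690 CPM in het and 0.305, 0.369 and 0.259 CPM in knockout clones.

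**Figure D3:**
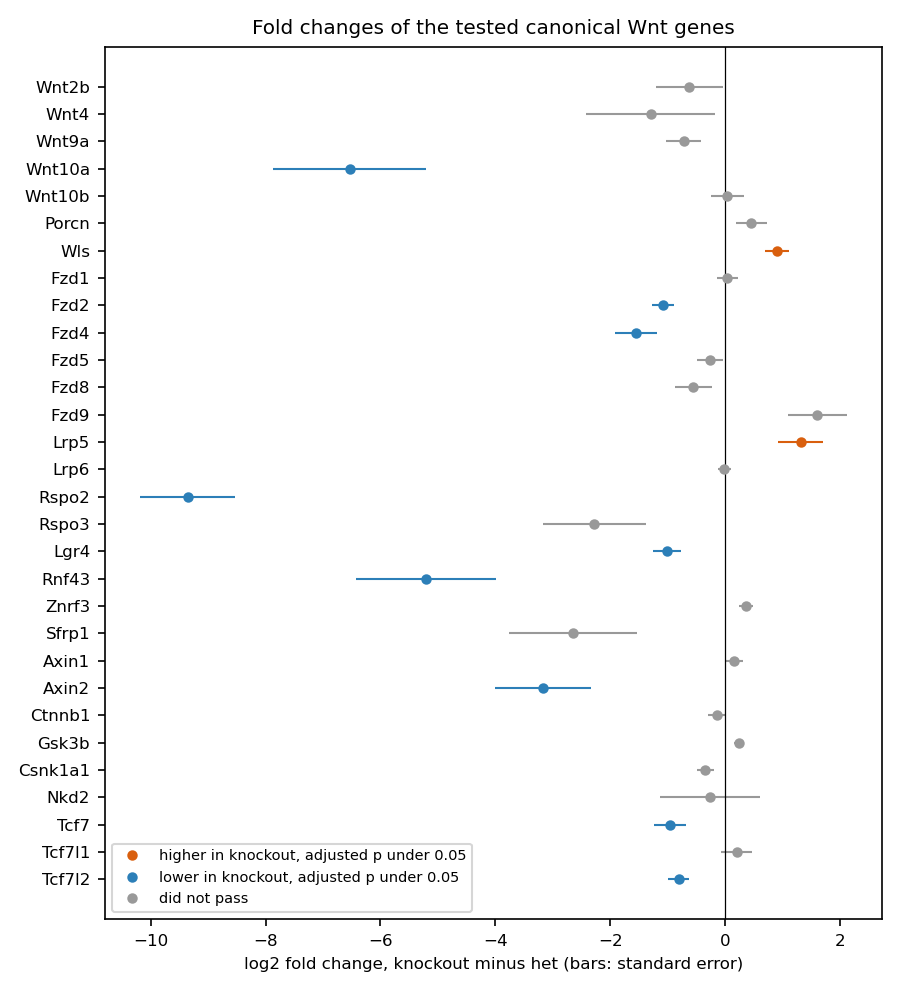
Fold changes on the log2 scale (knockout minus het) of the 30 tested canonical Wnt genes, with bars of 1 standard error from the edgeR fit over 3 clones per genotype. Blue genes fell, orange genes rose and grey genes did not pass an adjusted p of 0.05. Rspo2 at -9.36, Wnt10a at -6.53 and Rnf43 at -5.21 lie farthest from 0, with wide bars, and Lrp6, Wnt10b and Fzd1 lie at 0.

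TCF/LEF factors recognise DNA with the core CTTTGA, so the 250 bases before the gene starts that RefSeq lists were searched for it. Sequences were RefSeq's on GRCm38.p6, read along the gene's strand, and 30 of the 45 genes had at least 1 such window, 37 in all, since some genes have several listed starts. A listed start can lie inside the gene as annotated for the counts, as for a Tcf7l2 window, and the Fzd4 window overlaps annotated exons. The core, on either strand, was in 13.8% of all 32851 windows of this length. Of the genes that fell, 6 had a window (Axin2, Fzd4, Lgr4, Rnf43, Tcf7 and Tcf7l2) and 0 held the core, nor did the 1 gene with a window that rose. The core was in 5 of the 37 windows, those of 5 of the 30 genes (Dkk1, Frzb, Fzd1, Gsk3b and Lef1). The longer form CTTTGAT, which contains the core, was in 3.21% of all windows and in 0 of these genes. A match is a run of letters, not a shown site, and its absence says only that the letters are not in this window. To show what was searched, the windows of 2 genes that fell, Axin2 (chr11:108920099-108920348, plus strand) and Lgr4 (chr2:109917397-109917646, plus strand), are printed beside that of Fzd1 (chr5:4758217-4758466, minus strand), a receptor gene that did not pass and whose window holds the core on the opposite strand, in capitals. These 3 windows overlap no annotated exon.
Axin2: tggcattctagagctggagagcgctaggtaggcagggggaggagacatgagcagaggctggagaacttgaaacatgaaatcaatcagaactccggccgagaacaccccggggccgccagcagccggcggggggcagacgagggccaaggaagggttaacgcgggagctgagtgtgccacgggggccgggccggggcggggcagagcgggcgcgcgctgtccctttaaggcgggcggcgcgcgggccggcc
Lgr4: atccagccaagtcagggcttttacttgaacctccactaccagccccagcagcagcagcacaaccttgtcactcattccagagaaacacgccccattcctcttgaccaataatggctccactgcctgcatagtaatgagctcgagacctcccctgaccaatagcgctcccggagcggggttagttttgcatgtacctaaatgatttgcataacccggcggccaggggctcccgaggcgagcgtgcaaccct
Fzd1: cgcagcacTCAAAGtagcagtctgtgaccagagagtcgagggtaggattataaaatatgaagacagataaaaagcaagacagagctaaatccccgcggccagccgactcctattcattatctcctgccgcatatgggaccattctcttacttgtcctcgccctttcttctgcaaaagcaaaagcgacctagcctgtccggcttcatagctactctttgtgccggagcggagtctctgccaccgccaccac
The match in Fzd1 begins 242 bases before the start that RefSeq lists, near the far end of the window. That listed start lies upstream of the gene as annotated for the counts, which begins at base 4758035 on the minus strand.

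Counts were also compared by transcript, since the deposited files resolve them. Of 173 transcripts of the 45 genes in the files, 68 could be tested, and 2 rose and 5 fell. Over all tested transcripts 7.92% passed. Fzd2-201, Rspo2-201 and Wnt10a-201 fell with their genes (adjusted p = 0.036, 0.0058 and 0.044, edgeR on transcripts). No tested transcript of Lrp5, Lgr4, Fzd4, Rnf43, Axin2, Tcf7 or Tcf7l2 passed, although these genes did. Among them Rnf43-206 had the lowest adjusted p, 0.0696, and Lgr4-201, Lrp5-201 and Axin2-201 had 0.0813, 0.0972 and 0.233 (edgeR on transcripts). Both risers were from Wls. The protein-coding Wls-201 went from 34.2 ± 7.82 to 66.3 ± 5.84 CPM, and Wls-206, annotated as subject to nonsense-mediated decay, from 153 ± 37.6 to 357 ± 3.93 CPM (adjusted p = 0.0346 and 0.0187, edgeR on transcripts). The protein-coding form with more counts, Wls-205, went from 99.4 ± 25.8 to 172 ± 27.9 CPM and did not pass (adjusted p = 0.0835, edgeR on transcripts). Wls-206 made up 47.3%, 44.7% and 43.1% of the gene's counts in het and 55.5%, 51.8% and 51.4% in knockout clones, so its share was higher in each knockout clone. Csnk1a1 had 2 minor transcripts that fell although the gene did not pass. Csnk1a1-202 went from 11.2 ± 1.31 to 4.21 ± 0.496 CPM and Csnk1a1-209 from 15.7 ± 2.93 to 6.27 ± 1.22 CPM (adjusted p = 0.0179 and 0.0290, edgeR on transcripts), at 4.44% and 6.16% of the gene's counts in het and 2.04% and 3.12% in knockout clones. Transcripts of 1 gene share exons, so their separate levels are estimates, and without single clones the number passing was 1 to 9.

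**Figure D4:**
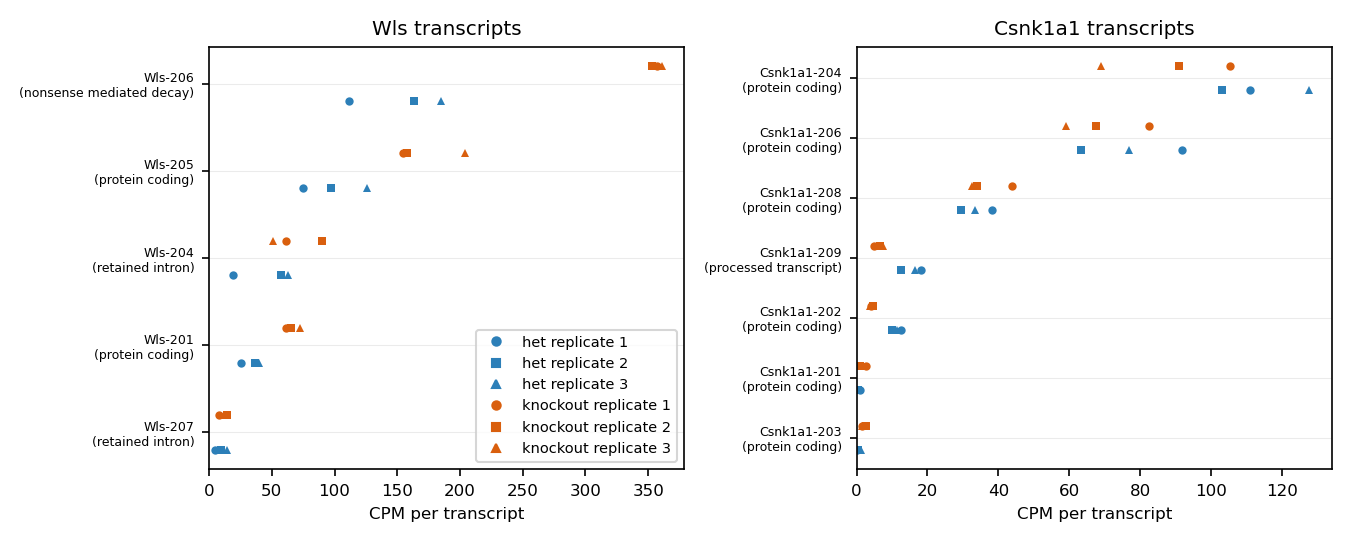
CPM of the tested transcripts of Wls (left) and Csnk1a1 (right) in each clone, with the annotated type of each transcript in brackets; blue points are het and orange points knockout clones. The knockout clones of Wls-206 lie between 353 and 361 CPM and the het clones between 112 and 185 CPM.

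The authors' deposited table of transcript comparisons held 41 transcripts from 20 of the 45 genes. At an FDR below 0.05, the knockout clones had 4 of them higher and 6 lower, and 14.0% of all transcripts in it passed. The higher ones in the authors' deposited table were Wls-201, Wls-205, Wls-206 and Lrp5-201, with log2 fold changes of 0.92, 0.75, 1.18 and 1.39. The lower ones in the authors' deposited table were Rspo2-201 (-9.34), Rspo3-201 (-2.26), Csnk1a1-202 (-1.45), Csnk1a1-209 (-1.36), Fzd2-201 (-1.04) and Lgr4-201 (-0.95). Rspo3-201 (FDR 0.0241 in the authors' deposited table) thus passed there, while the gene did not pass in edgeR over the summed counts. Tcf7-201, Tcf7l2-210 and Tcf7l2-222 did not pass there (FDR 0.0554, 0.131 and 0.330 in the authors' deposited table), while both genes fell in edgeR over the summed counts. No transcript of Wnt10a, Rnf43, Axin2 or Fzd4 was among those 41.

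The other Wnt ligands, receptors and extracellular modulators numbered 36, of which 19 were tested, 5 rose, 5 fell and 9 did not pass, and the median log2 fold change was -0.13. The share that passed was 52.6%, against 28.1% of all tested genes. Wnt5a was over the filter minimum in no het clone, and Notum and Wnt11 in no knockout clone, so they entered the test through 1 genotype and the share supports no statement about the list. The largest gain was of Wnt5a, the main non-canonical ligand, which measured 0, 0 and 0.0627 CPM in het and 17.2, 15.1 and 13.5 CPM in knockout clones. There was 1 het count against 787, a ratio of 764 with a counting interval of 137 to 30209 (log2 fold change 9.13, or 11.04 without het replicate 3; adjusted p = 0.000138, edgeR). Ror2, a receptor for WNT5A, fell instead, from 38.9, 30.5 and 35.4 CPM to 20.03, 16.2 and 14.9 CPM (adjusted p = 0.00478, edgeR). Lgr6, the R-spondin receptor related to Lgr4, rose from 2.15, 2.14 and 1.07 CPM to 15.2, 11.4 and 7.86 CPM (log2 fold change 2.68 with SE 0.38, adjusted p = 0.00392 in edgeR). Lgr4 and Lgr6 therefore moved in opposite directions, and neither set of clones overlapped. Apcdd1, an inhibitor at the membrane, fell from 19.4, 26.4 and 28.0 CPM to 8.61, 10.2 and 6.05 CPM (adjusted p = 0.00491, edgeR). The others, named after their values were seen, were Kremen1, Trabd2b and Fzd3, which rose, and Gpc4, Notum and Wnt11, which fell.

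Inside the cell, 39 of 40 further pathway genes were tested, and 4 rose, 6 fell and 29 did not pass, and the median log2 fold change was -0.02. The lowest adjusted p was that of Tbl1xr1, a cofactor of beta-catenin target genes, which fell from 60.8, 59.4 and 79.6 CPM to 24.4, 24.0 and 20.3 CPM (log2 fold change -1.54, adjusted p = 0.00123, edgeR). Ppp2r5a, a regulatory subunit of the phosphatase PP2A, fell from 161 ± 4.98 to 89.7 ± 4.57 CPM (adjusted p = 0.0013, edgeR). Ctnnbip1, whose product blocks the binding of beta-catenin to TCF, fell from 43.1 ± 9.05 to 22.5 ± 0.291 CPM (adjusted p = 0.00729, edgeR). Frat2, whose product binds GSK3, rose from 2.88 ± 0.446 to 8.51 ± 1.17 CPM (adjusted p = 0.00489, edgeR). A fall of an inhibitor and of a cofactor thus stood side by side, and 25.6% of the tested genes of this list passed, against 28.1% of all tested genes.

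Several target genes of beta-catenin and TCF/LEF, from a list drawn from various tissues, fell, Bmp4, Ccnd1 and Gja1 among them. Of 40 such genes outside the 45, 28 were tested, 2 rose (13.9% of all tested genes rose), 11 fell (14.2% of all tested genes fell) and 15 did not pass. The median log2 fold change was -0.37. Notum and Fst were over the filter minimum in no knockout clone and entered the test through the het clones, so the counts describe the genes and not the list. This list shares 4 genes with the list of other Wnt genes, Notum, Apcdd1, Lgr6 and Dkk4. Among the 45 themselves, 8 are such targets and 4 of these were tested. Axin2, Rnf43 and Tcf7 fell and Znrf3 did not pass.

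Bmp4, which encodes a bone morphogenetic protein, measured 93.6, 91.0 and 153 CPM in het and 0.733, 0.800 and 0.620 CPM in the knockouts (log2 fold change -7.28 with SE 0.30, adjusted p = 3.71e-05 in edgeR). Ccnd1, which encodes cyclin D1, measured 128, 102 and 70.7 CPM in het and 4.52, 3.69 and 2.02 CPM in the knockouts (log2 fold change -4.89 with SE 0.37, adjusted p = 0.000576 in edgeR). Neither gene overlapped between the genotypes. Ccn5, which encodes a matricellular protein, fell from 90.0 ± 55.4 to 0.811 ± 0.245 CPM (log2 fold change -6.76, or -6.13 without het replicate 3; adjusted p = 0.00102, edgeR). Fst, whose product follistatin binds activins, fell from 3.38 ± 0.353 to 0.270 ± 0.0312 CPM (adjusted p = 0.000872, edgeR). Gja1, which encodes the gap junction protein connexin 43, fell from 935 ± 434 to 106 ± 15.9 CPM (adjusted p = 0.00299, edgeR). Lgr6, given above, and Ccn4, a relative of Ccn5 named after its values were seen, were the listed targets that rose.

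Notum and Myc were chosen after their values were seen. Notum, which encodes an enzyme that strips the lipid from Wnt proteins and is itself a Wnt target, measured 1.80, 2.36 and 10.5 CPM in het and 0, 0 and 0.103 CPM in knockout clones. It had 240 against 2 counts, a ratio of 124 with a counting interval of 33.9 to 1027 (log2 fold change -6.76 with SE 1.21, adjusted p = 0.00906 in edgeR). Without het replicate 3 or knockout replicate 3 its log2 fold change was -5.53 and -9.35. Like Axin2, Wnt10a and Rspo2, it was highest in het replicate 3. Myc, often named as a target, measured 91.7 ± 14.6 and 74.3 ± 32.6 CPM and did not pass (adjusted p = 0.557, edgeR).

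**Figure D5:**
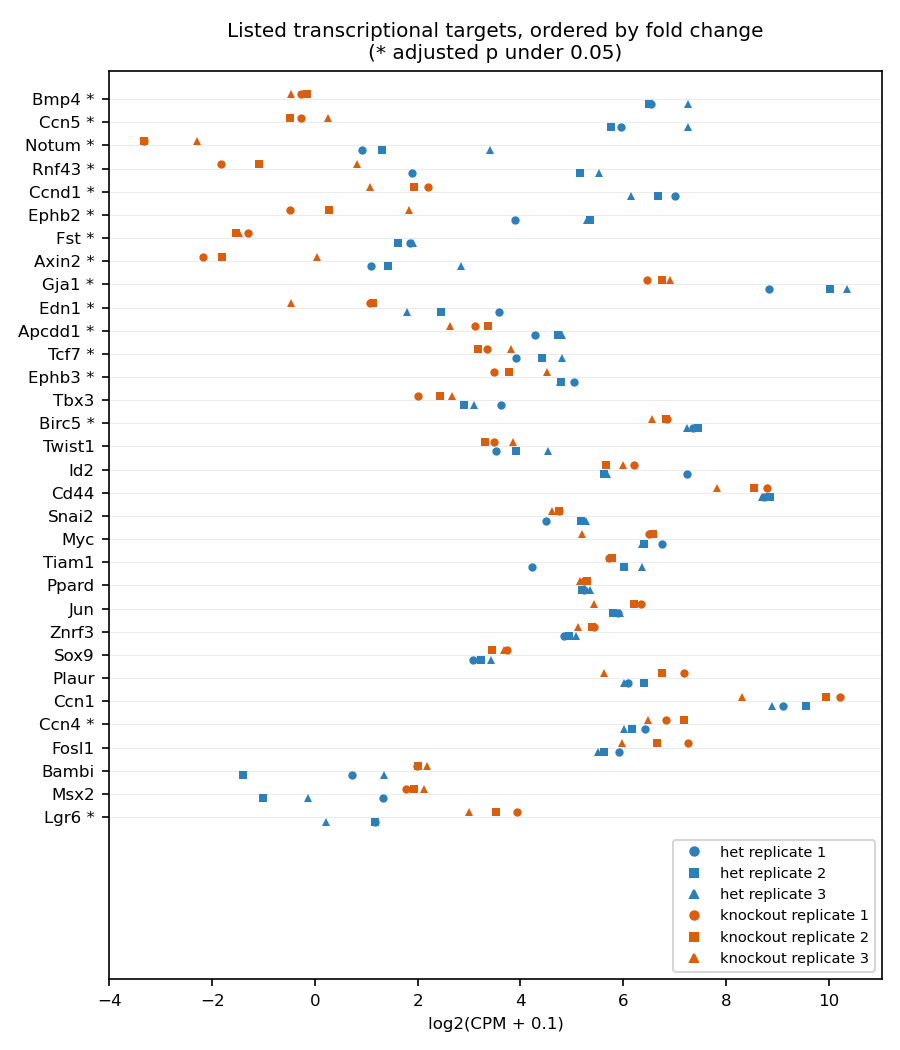
Level in each clone, as log2(CPM + 0.1), of the 32 tested targets of beta-catenin and TCF/LEF, the 4 tested ones among the 45 genes included, ordered from the lowest to the highest fold change. An asterisk marks an adjusted p below 0.05. Blue het and orange knockout points lie far apart for Bmp4, Ccn5, Notum and Rnf43 at the top, mix in the middle (Myc, Jun, Cd44), and change sides for Lgr6 at the bottom.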

How the data were processed

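The 6 libraries are 3 het and 3 knockout clones. Named per the submitters' processing notes are Trimmomatic 0.36, kallisto 0.42.5 and an unstated version of edgeR, with build GRCm38.p4. The deposited files hold estimated counts per transcript (48.0% of values not whole), FPKM values for 24799 transcripts, and, per the file headers, the authors' comparison with log2 fold changes, log2 CPM and p-values. Here 95213 of 96626 transcripts were assigned to genes with GENCODE M21 and 260 through the authors' table, and 1153 were left out. Counts were summed per gene and rounded. Genes kept by filterByExpr (count minimum 10, total 15) were scaled with TMM and tested in edgeR 4.0.16 (R 4.3.3, robust quasi-likelihood, two-sided). Standard errors come from the F statistic. TPM was computed from counts and annotated transcript lengths. Counting intervals are exact 95% intervals and cover counting error only. The procedure was tested on simulated data.

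The 45 genes and all lists were chosen with earlier results of these data known. Genes that pass and those of at least 5 CPM are described by name. From each other list up to 4 passing genes with the smallest adjusted p are named, and up to 6 targets. Alternatives were RLE scaling, library totals, 2 filters, the local chromosome median (20 tested genes on each side) as null, DESeq2 1.42.0, limma-voom (limma 3.58.1), limma on log2(FPKM + 1), on log2(FPKM + 0.1) and with a mean FPKM of at least 1, and each clone left out.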

Additional observations from a re-analysis of the deposited data

How the results depend on the processing

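No paired analysis was possible because the labels give the clones no shared replicate numbers. All 9 falls and both rises kept their direction under every alternative run. The number of Wnt genes that rose was 2, and 1 with library totals, with no filter on low counts or with a minimum of 1 CPM in 3 samples. It was 0 to 3 without single clones. The number that fell was 9, and 5 on each of the 3 FPKM scales, where 20 of the 45 genes could be tested, and 2 to 12 without single clones. Of other Wnt and receptor genes 6 to 11 passed without single clones (10 with all), of other intracellular genes 5 to 14 (10 with all), and of transcripts 1 to 9 (7 with all), the last set chosen after seeing the data. All genes passed at 11.8% without knockout replicate 2 and at 29.1% without het replicate 1. Rspo2 and Wnt5a passed on log2(FPKM + 1), at smaller log2 fold changes of -2.53 and 1.76, and Lgr6 lost its call on log2(FPKM + 0.1) (adjusted p = 0.0665, limma). The sign turned, never past the threshold, when single clones were left out for Wnt4 (log2 fold changes of -1.83 to 1.12), Wnt10b (-0.19 to 0.35), Fzd1 (-0.10 to 0.21), Lrp6 (-0.084 to 0.11), Nkd2 (-0.72 to 1.42) and Tcf7l1 (-0.068 to 0.42). It also turned for Nkd2 with limma-voom (0.35), for Csnk1a1 against the local median (0.036), and for Lrp6 with no filter (0.0096), against the local median (0.23) and on the 3 FPKM scales (0.030, 0.032 and 0.030). The cause of these differences was not tested. Of the 15 genes that could not be tested with all clones, Sfrp2 and the others were over the filter minimum in at most 2 clones of a genotype.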

Other observations

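Single clones stood out for several canonical Wnt genes. Het replicate 1 held 22.4 CPM of Wnt4, 4.85 CPM of Nkd2 and 2.51 CPM of Dkk3, each the highest of the 6 clones. It had the lowest het levels of Rnf43 (3.59 CPM), Lrp5 (24.2 CPM), Wls (244 CPM), Sfrp1 (0.299 CPM) and Sfrp2 (0.120 CPM). Het replicate 3 was the highest clone for Wnt10a, Rspo2, Rspo3, Rnf43, Axin2, Tcf7 and Tcf7l2. Among the knockout clones, replicate 3 had the highest levels of Rspo3 (3.83 CPM), Rnf43 (1.65 CPM), Axin2 (0.931 CPM), Sfrp1 (0.724 CPM) and Lgr4 (30.8 CPM). These are values of single clones, and no test compares them.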
